A study of Mus musculus with 43 samples.

Results

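Genes of blood vessels and their basement membrane were followed: Col4a1, Col4a2, Igfbp7, Lyve1, Flt1 and Cldn5, 6 of the 10127 genes of the expression table. They were taken from the table by name. Col4a1, Igfbp7 and Lyve1 were selected on their measured rise in the PVN (paraventricular nucleus) of fasted mice, so the difference between fasted and fed PVN is described here without a test, and so is each comparison of PVN with another nucleus for those 3 genes. RNA was sequenced from 4 hypothalamic nuclei, cut out of frozen brain sections with a laser: the PVN, the ARC (arcuate nucleus), the DMH (dorsomedial hypothalamus) and the VMH (ventromedial hypothalamus). Every mouse was an adult male, of a strain that the labels spell C57/BL6 and the methods of the study C57BL/6J. In each, the Snord116 cluster, a group of small nucleolar RNA genes of the Prader-Willi region, was deleted on the paternal chromosome. Mice were either fed ad libitum or fasted for 24 hours. Wild-type mice were not analysed here, and fed deletion mice served as controls. The libraries, fasted and fed, numbered 4 and 5 for ARC, 5 and 6 for DMH, 5 and 5 for PVN, and 6 and 5 for VMH, 41 in all from 12 mice.

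Brain capillaries are tubes of endothelial cells that rest on a basement membrane and are sealed by tight junctions, which make up the blood-brain barrier. The sheet is built mainly of type IV collagen, laminin, nidogen and perlecan, and vascular endothelial growth factor (VEGF) acts on the endothelial cells through its receptors. The arcuate nucleus borders the median eminence, where capillaries are fenestrated, and the PVN is known for its dense capillary bed.

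The sequences at the start sites of these genes are shown because the collagen pair shares a start site and because Flt1, Igfbp7 and Cldn5 had the PVN difference described below. Col4a1 (chromosome 8, 11198423 to 11312826, minus strand, GRCm38) and Col4a2 (chromosome 8, 11312805 to 11449287, plus strand) encode the alpha 1 and alpha 2 chains of type IV collagen and are read away from each other. The first exons of both genes overlap by 22 bases at chr8:11312805-11312826, given here on the strand of Col4a2.
Col4a2 and Col4a1 shared start: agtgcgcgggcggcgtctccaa
Promoter sequences came from the RefSeq table of build GRCm38.p6, in which 5 of the 6 genes had an entry, all but Lyve1. The windows below are the 250 bases before the start of transcription, 5′ to 3′ on the strand of the gene. Capitals mark the GC box GGGCGG on either strand and, in Flt1, the cyclic AMP response element TGACGTCA. The Flt1 window is chr5:147726012-147726261, the Igfbp7 window chr5:77408046-77408295 and the Cldn5 window chr16:18776597-18776846.
Flt1: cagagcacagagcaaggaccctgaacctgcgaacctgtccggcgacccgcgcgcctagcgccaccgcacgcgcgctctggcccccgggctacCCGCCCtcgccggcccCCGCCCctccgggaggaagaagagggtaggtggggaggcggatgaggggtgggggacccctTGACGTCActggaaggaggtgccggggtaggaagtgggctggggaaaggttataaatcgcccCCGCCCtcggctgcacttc
Igfbp7: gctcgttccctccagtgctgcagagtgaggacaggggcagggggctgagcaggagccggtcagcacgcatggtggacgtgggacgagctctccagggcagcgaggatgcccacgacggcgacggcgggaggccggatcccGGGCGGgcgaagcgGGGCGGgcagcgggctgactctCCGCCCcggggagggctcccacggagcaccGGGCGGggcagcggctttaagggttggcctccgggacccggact
Cldn5: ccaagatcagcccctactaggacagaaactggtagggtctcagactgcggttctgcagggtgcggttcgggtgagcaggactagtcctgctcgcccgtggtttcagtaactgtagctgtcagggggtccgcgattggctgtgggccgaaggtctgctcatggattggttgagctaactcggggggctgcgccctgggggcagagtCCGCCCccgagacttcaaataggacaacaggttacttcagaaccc
The GC box was found 4 times in the Igfbp7 window, 3 times in that of Flt1, 2 times in that of Col4a2, at 1 place in that of Cldn5 and nowhere in that of Col4a1, and 32.9% of the windows of 27025 genes held it. The cyclic AMP response element lay 81 bases before the Flt1 start, and 1.62% of all windows held it. The TATA box TATAAA lay 31 bases before the Flt1 start, against 13% of all windows with such a match. The CCAAT box, searched as CCAAT on both strands, was present in the windows of Cldn5, Col4a1 and Col4a2 and in 34.5% of all windows. The ETS core GGAA was too common to separate genes, with 93.4% of all windows holding it. These matches describe the letters of the windows only.

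Library depth ran from 1.94 to 8.23 M reads (M for mega), and the median library had 4.10 M. The labelled nuclei could be checked with 2 marker genes in the table. Avp, the vasopressin gene of the PVN, was at a mean of 800.4 CPM (reads of the gene scaled to a fixed library size) in PVN and of 1.70 to 3.95 CPM in the others, and Fezf1, a transcription factor gene of the VMH, was at 172 to 256 CPM in VMH libraries and at 21.9 CPM or less elsewhere. Of 24 listed endothelial genes 15 were in the table, and all but Nos3 were above 0 in every library. A difference in a tissue sample can come from fewer cells of a type or from less RNA per cell, and these cannot be told apart here. Fasted mouse 86 had the highest library of its nucleus for 21% of genes in ARC, for 20.9% in PVN, for 14.8% in DMH and for 14.1% in VMH. Values without that mouse are given for the differences between PVN and the mean of the other nuclei and for Lyve1. Between fasted and fed PVN they are given for Col4a1, Igfbp7, Lyve1 and Flt1 alone.

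The 6 genes differed widely in level. Per kilobase of exon and averaged over the 41 libraries, Igfbp7 was the most abundant at 18.1 ± 18.3 CPM per kb (SD, n = 41). Col4a2 was at 6.19 ± 3.36 CPM per kb, Cldn5 at 5.55 ± 3.23, Flt1 at 5.06 ± 2.46 and Col4a1 at 2.98 ± 2.17, with SD over the same libraries. Neighbours in this order lay within their spread. Lyve1 was at 0.97 ± 2.88 CPM per kb, listed at 0 in 15 of the 41 libraries, and at 0.328 ± 0.475 CPM per kb without mouse 86 (n = 37). A count of 0 there allows up to 0.507 to 1.55 CPM, depending on depth and for counting error only.

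The mean level of all 6 genes over fed and fasted libraries was higher in PVN than in the mean of ARC, DMH and VMH. The differences on the log2(CPM + 0.5) scale were 1.49 for Igfbp7, 1.22 for Flt1, 1.22 for Lyve1, 1.06 for Cldn5, 0.71 for Col4a1 and 0.46 for Col4a2. For Col4a1, Igfbp7 and Lyve1 these values hold the PVN libraries on which the genes were picked and are not tested. Of the 3 genes that were not picked (Col4a2, Flt1 and Cldn5), 3 passed an adjusted p of 0.1 in a test of any difference among the 4 nuclei (F-test of limma), with 43.3% of all genes called. In fed libraries alone 2 of the 3 passed, Flt1 and Cldn5, with 28% of all genes called, and in fasted libraries alone 2 of the 3, Flt1 and Col4a2, with 28.6%. PVN above the mean of the others passed for 3 of the 3, with 10.4% of all genes called, in fed libraries alone for 2 of the 3 (Flt1 and Cldn5, 5.53% of all genes), and in fasted libraries alone for 2 of the 3 (Flt1 and Col4a2, 6.76% of all genes). Without mouse 86 the differences were 1.37 for Igfbp7, 1.15 for Flt1, 1.10 for Lyve1, 1.09 for Cldn5, 0.56 for Col4a1 and 0.39 for Col4a2.

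Flt1 encodes a receptor of VEGF that binds the ligand tightly and also exists as a soluble form. It lies on chromosome 5 (147561604 to 147726011, minus strand). Its level was 116 ± 19.8 CPM in PVN (SD, n = 10), 66.7 ± 20.8 in DMH (n = 11), 50.9 ± 13.4 in VMH (n = 11) and 38.7 ± 9.41 in ARC (n = 9). PVN libraries ran from 97.0 to 156 CPM, above every library of ARC (28.0 to 49.6) and VMH (33.2 to 71.7), and 1 DMH library, of a fed mouse at 99.7 CPM, lay within the PVN range. PVN exceeded ARC by 1.62 ± 0.15 log2 units (SE, adjusted p = 1.7e-12, limma), DMH by 0.86 ± 0.14 (adjusted p = 6.23e-06) and VMH by 1.18 ± 0.14 (adjusted p = 1.5e-09). The shares of all genes called higher in PVN in these 3 comparisons were 8.83%, 8.19% and 15.6%. DMH exceeded ARC by 0.75 ± 0.14 (adjusted p = 0.00011), where 18% of all genes were called either way. VMH exceeded ARC by 0.43 ± 0.14 (adjusted p = 0.0203), with 30.3% of all genes called, and this call was lost in fed libraries alone (0.29, adjusted p = 0.336). VMH was below DMH by 0.32 ± 0.14 log2 units (adjusted p = 0.0983), with 23.4% of all genes called, but with the mouse number as a replicate block the adjusted p was 0.264 and in fasted libraries alone 0.797, so the order of DMH and VMH rested on the setting. In fed libraries alone PVN exceeded DMH by 0.45 log2 units and did not pass (adjusted p = 0.134), while PVN still exceeded ARC and VMH. Flt1 was the gene of the 6 that passed in every pair of nuclei.

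Igfbp7 (chromosome 5, 77349240 to 77408041, minus strand) encodes a secreted protein of the insulin-like growth factor binding family that is deposited around vessels. Its level was 45.3 ± 35.8 CPM in PVN (SD, n = 10), 14.7 ± 6.13 in DMH (n = 11), 14.5 ± 5.58 in VMH (n = 11) and 13.7 ± 4.60 in ARC (n = 9). These are descriptions for PVN, since Igfbp7 was picked there. The lowest PVN library, at 22.2 CPM, was above the highest ARC library at 21.4 CPM and below the highest libraries of DMH (27.9 CPM) and VMH (26.4 CPM). PVN lay above the other nuclei by 1.46 to 1.54 log2 units over all libraries and by 0.85 to 1.04 in fed libraries alone, while ARC, DMH and VMH differed from one another by 0.02 to 0.08 log2 units and passed in none of these pairs. The PVN excess over the mean of the others was 0.92 log2 units in fed and 2.07 in fasted libraries. Of the same family, Igfbp2 was the only other gene measured, and its PVN difference of 0.44 did not pass.

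Cldn5 (chromosome 16, 18776847 to 18778262, plus strand) encodes claudin 5, the main claudin of endothelial tight junctions. Its level was 12.8 ± 5.24 CPM in PVN (SD, n = 10), 6.74 ± 2.25 in VMH (n = 11), 6.25 ± 3.85 in ARC (n = 9) and 5.83 ± 3.10 in DMH (n = 11). The ranges overlapped, with PVN at 7.18 to 23.6 CPM and ARC at 1.24 to 13.9 CPM. PVN exceeded ARC by 1.10 ± 0.33 log2 units (SE, adjusted p = 0.0164, limma), DMH by 1.19 ± 0.31 (adjusted p = 0.00566) and VMH by 0.90 ± 0.31 (adjusted p = 0.0265). The other 3 nuclei did not differ from one another past the threshold. The PVN excess over the mean of the others was 1.34 in fed libraries (adjusted p = 0.0432) and 0.80 in fasted libraries, where it did not pass (adjusted p = 0.129). Of the single pairs, PVN against DMH passed in fed libraries (adjusted p = 0.0483), and PVN against ARC and VMH did not (0.144 and 0.189). In fasted libraries none of the 3 pairs passed (0.256, 0.294 and 0.221 against ARC, DMH and VMH).

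The collagen pair was compared over the same nuclei. Col4a1 averaged 35.7 ± 28.0 CPM in PVN (SD, n = 10), 19.9 ± 6.60 in ARC (n = 9), 19.5 ± 4.15 in DMH (n = 11) and 14.7 ± 5.48 in VMH (n = 11). Col4a2 averaged 53.0 ± 33.9, 38.7 ± 19.1, 39.4 ± 14.8 and 33.4 ± 14.7 CPM in the same order. The PVN excess over the mean of the others differed in size between the fasted libraries, on which Col4a1 was picked, and the fed libraries, a difference that was not tested. In fasted libraries alone it was 1.51 for Col4a1 and 0.71 for Col4a2, and in fed libraries alone it was -0.09 for Col4a1 and 0.21 for Col4a2 (adjusted p = 0.643 for Col4a2, limma). The Col4a2 difference over all libraries also lost its call without batch as a covariate (0.41, adjusted p = 0.226). Both genes had their lowest mean in VMH. Col4a2 was below PVN there by 0.66 ± 0.18 log2 units (SE, adjusted p = 0.00470, limma), a call that was lost in fed libraries alone (0.41, adjusted p = 0.316). The excess of Col4a2 in PVN over ARC (0.37, adjusted p = 0.238) and over DMH (0.36, adjusted p = 0.209) did not pass. For Col4a1, VMH was below PVN by 1.01 log2 units over all libraries and by 0.34 in fed libraries, with no test. Without PVN, neither gene passed in any pair of ARC, DMH and VMH.

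Lyve1 (chromosome 7, 110850607 to 110863239, minus strand) encodes a hyaluronan receptor known from lymphatic endothelium and from macrophages along brain vessels. Its median was 1.72 CPM in PVN (n = 10), 0.682 CPM in DMH (n = 11), 0.228 CPM in ARC (n = 9) and 0 in VMH (n = 11), where 8 libraries were listed at 0. The ARC and PVN libraries of fasted mouse 86, at 39.5 and 38.6 CPM (130 and 204 reads), stood far above the next highest ARC and PVN libraries at 4.83 and 5.57 CPM. The PVN values are a description, since Lyve1 was picked there: PVN lay above VMH by 1.74 log2 units, above DMH by 1.32 (0.92 without mouse 86) and above ARC by 0.60 (0.22 to 0.91 with a mouse left out). VMH was below ARC by 1.13 ± 0.50 log2 units (SE, adjusted p = 0.0940, limma). That call was lost without mouse 86 (0.75, adjusted p = 0.284) and with the mouse number as a replicate block (adjusted p = 0.285). In fed libraries Lyve1 did not pass the filter on low values.

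**Figure D1:**
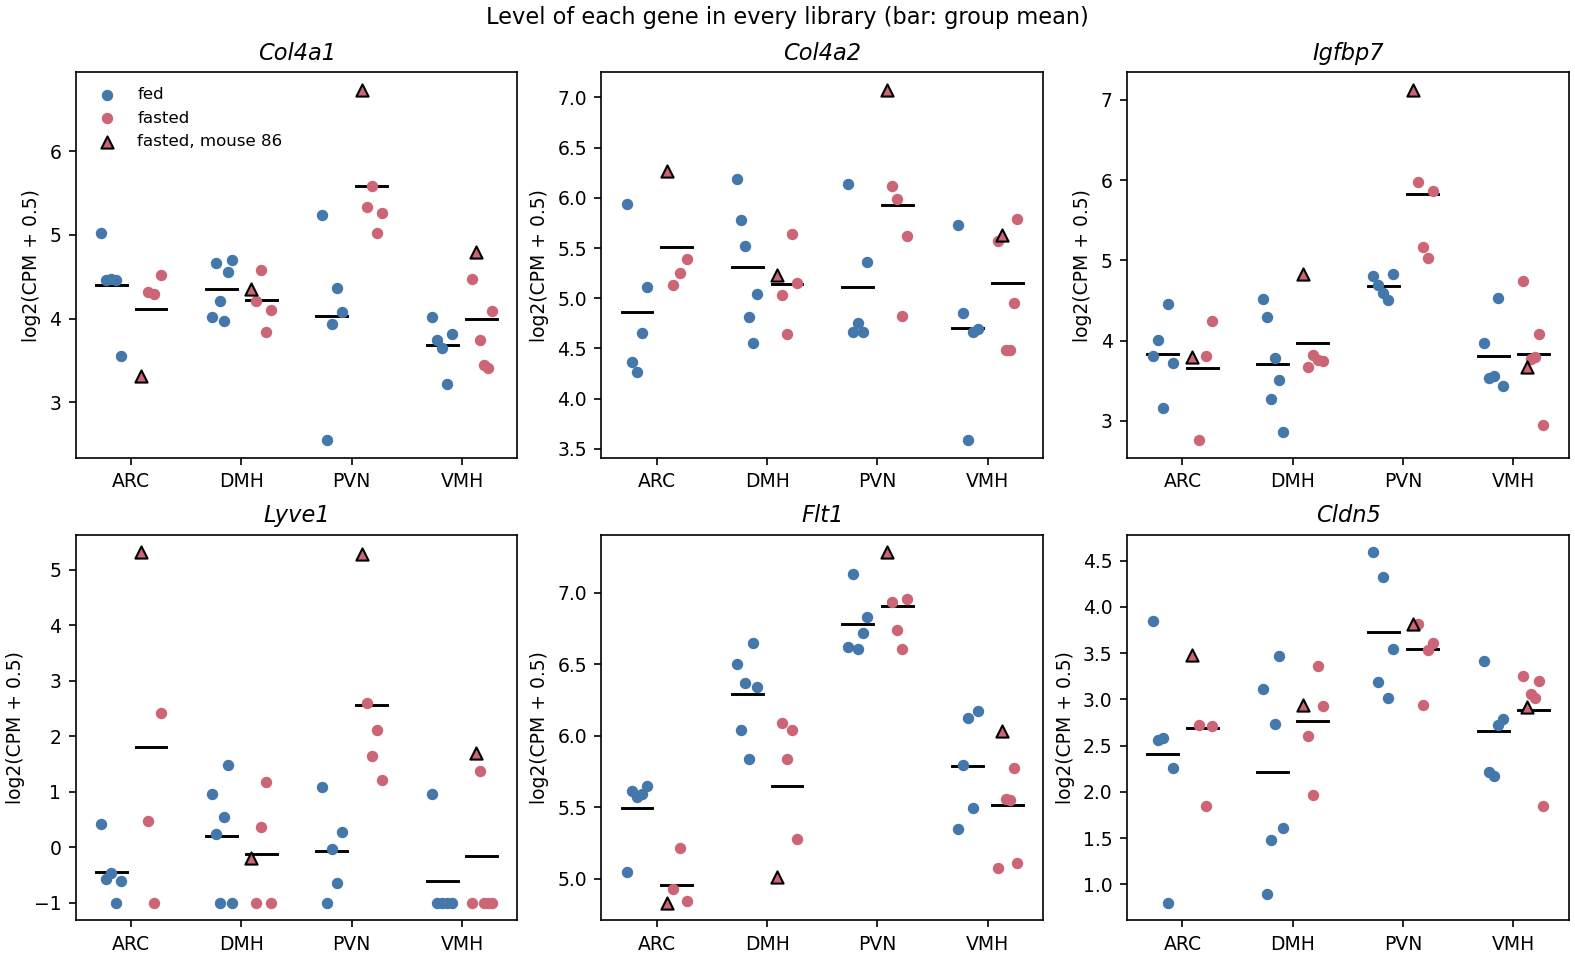
Level of the 6 genes in each of the 41 libraries, as log2(CPM + 0.5), by nucleus and nutritional state. Points are libraries, triangles are those of fasted mouse 86, and bars are group means; Flt1 falls from PVN to ARC, and the Lyve1 libraries of mouse 86 in ARC (39.5 CPM) and PVN (38.6 CPM) stand apart.

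The other endothelial genes of the table were compared in the same way. All 13 of the listed endothelial genes that are not among the 6 were higher in PVN than in the mean of the other nuclei, with a median of 1.15 log2 units, against a median of -0.01 over all genes tested and 10.4% of all genes called higher. Slco1a4, a transporter of the blood-brain barrier, was higher by 1.52 ± 0.19 log2 units (SE, adjusted p = 2.10e-08, limma). Cdh5, the cadherin of endothelial junctions, was higher by 1.44, and Kdr, the main signalling receptor of VEGF, by 1.32. The count was 12 of 13 without mouse 86 and 12 of 13 in fasted libraries alone, with medians of 1.11 and 1.39. In fasted libraries 6.76% of all genes were called higher. In fed libraries alone the count was 5 of 13, with 5.53% of all genes called, and all 13 differences were above 0 with a median of 0.88. The summed level of the 15 endothelial genes was 358 to 572 CPM in PVN libraries and 106 to 389 CPM in the others.

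Genes of the vessel wall outside the endothelium were less uniform; of all genes 10.4% were called higher and 11.6% lower in PVN. Of 9 measured mural genes, which mark pericytes and smooth muscle, 3 were higher in PVN: Abcc9 (1.53), Anpep (1.13) and Atp13a5 (1.01). Of the 9 measured basement membrane genes, Hspg2, which encodes perlecan, was higher in PVN by 1.32, as was Col4a2 by its value above, and Lama1, a laminin chain, was lower by 1.99 log2 units. Lama1 was higher in VMH than in the mean of the others by 2.89. Agrn, which encodes agrin and had the highest mean level of that list, differed by 0.13 and did not pass. Of the perivascular macrophage list 5 of 12 genes were measured, and none of the 4 other than Lyve1 passed.

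Other cell types moved with the nuclei as well. Of 7 measured oligodendrocyte genes 4 were lower in PVN than in the mean of the others, with 11.6% of all genes called lower, and their summed level was 352 to 627 CPM in PVN, 246 to 780 CPM in ARC, 455 to 1587 CPM in DMH and 1129 to 1780 CPM in VMH. Of 5 measured neuronal genes 3 were lower in PVN and 2 were higher. None of the 8 measured microglial genes passed in either direction between PVN and the others. Of 4 measured haemoglobin genes, markers of red blood cells left in the tissue, 1 was higher in PVN, where 10.4% of all genes were called higher, with sums of 10.6 to 34 CPM in PVN libraries and 2.21 to 67.4 CPM in the others. The part of tissue composition in the PVN difference was not tested.

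**Figure D2:**
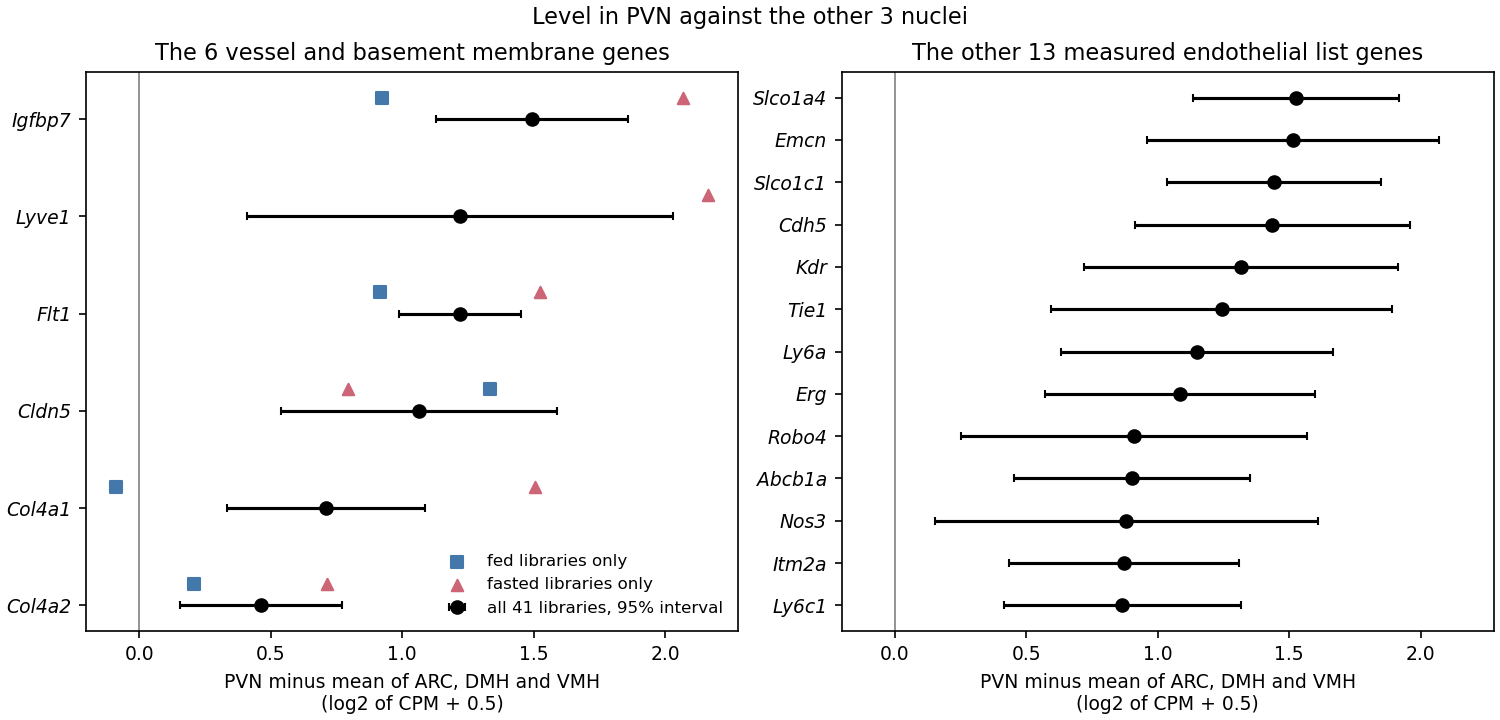
Level in PVN minus the mean of ARC, DMH and VMH, on the log2(CPM + 0.5) scale, for the 6 genes and for the other 13 measured endothelial genes. Black points are all 41 libraries with a 95% interval, and squares and triangles are the fed and the fasted libraries alone. Col4a1, Igfbp7 and Lyve1 were picked on PVN values, so their intervals are not read as a test. The fed value of Col4a1 is -0.09 and its fasted value 1.51.

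Fasted and fed PVN are described next, with no test. Over all genes the limma fit called 35 of 9529 in PVN (0.367%), and nothing is read from that share for these genes. Col4a1 was at 32.1, 37.9, 39.8, 47.6 and 106 CPM in fasted libraries and at 5.34, 14.8, 16.4, 20.1 and 37.2 CPM in fed libraries. The groups overlapped through 1 fed library, at 37.2 CPM, and the highest was fasted mouse 86. The fitted difference was 1.56 ± 0.29 log2 units (SE) with mouse 86 and 1.57 without it.

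Igfbp7 was at 32.1, 35.4, 57.5, 62.4 and 139 CPM in fasted PVN libraries and at 22.2, 23.6, 25.4, 27.4 and 27.8 CPM in fed ones. The groups did not overlap. The fitted difference was 1.15 ± 0.26 log2 units, and 0.85 without the library of mouse 86. Lyve1 was at 1.82, 2.61, 3.82, 5.57 and 38.6 CPM in fasted and at 0, 0.138, 0.476, 0.714 and 1.63 CPM in fed libraries, or 9 to 204 against 0 to 6 reads. These groups did not overlap either, and the difference of 2.63 ± 0.56 was 2.24 without mouse 86. With a pseudocount of 2 in place of 0.5 it was 1.65.

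The remaining genes were not picked for PVN but share its libraries. Col4a2 was at 27.9, 48.6, 63.1, 68.7 and 134 CPM in fasted and at 24.8, 24.9, 26.4, 40.7 and 70.1 CPM in fed libraries, a fitted difference of 0.81 ± 0.23 log2 units with overlapping groups. Flt1 was at 97.0, 106, 122, 124 and 156 CPM in fasted and at 97.1, 98.1, 105, 113 and 140 CPM in fed libraries. Its groups overlapped almost throughout, and the difference was 0.12 ± 0.15, or -0.01 without mouse 86. Cldn5 was at 7.18, 11.1, 11.7, 13.5 and 13.6 CPM in fasted and at 7.57, 8.64, 11.2, 19.5 and 23.6 CPM in fed libraries, a difference of -0.19 ± 0.35.

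Listed genes in the same PVN libraries, with those of the 6 among them, are also given without a test. Of the 15 endothelial genes 10 lay above 0 with fasting, with a median of 0.23 against 0.01 over all genes, and Kdr was at 0.87 ± 0.38 (SE). Hspg2 was at 1.20 ± 0.36. Of the 8 basement membrane genes that passed the filter 6 lay above 0, with Col4a1, which was picked there, and Col4a2 among them. Over all genes 50.8% lay above 0. Of 9 mural genes 5 lay above 0, with a median of 0.07, from Acta2 of smooth muscle at -0.35 to Kcnj8, a potassium channel gene of pericytes, at 2.01 ± 0.57. Kcnj8 was a low gene, at a mean of 3.77 CPM over all libraries and at 0 in 6 of them. Of 5 perivascular macrophage genes 3 lay above 0: Lyve1, which was picked there, Lyz2 at 1.84 ± 0.57 and Stab1 at 0.48. Maf was at -0.70 and F13a1 at -0.45. The summed level of the endothelial list was 378 to 572 CPM in fasted and 358 to 448 CPM in fed PVN libraries, with 15 of 24 genes measured. Its medians were 442 and 445 CPM. The summed level of the mural list was 96.1 to 172 CPM and 105 to 131 CPM, with medians of 129 and 117 CPM. The perivascular macrophage list, Lyve1 included, summed to 25.4 to 59.9 CPM in fasted and 18.3 to 29.3 CPM in fed PVN, and F13a1 of that list was at 0 in 14 of all libraries. Its medians were 33.2 and 22.1 CPM. Each of these lists had its highest fasted sum in the library of mouse 86, where Lyve1 alone was at 38.6 CPM. Within batch 1, with 1 fasted and 1 fed library, the PVN differences were 1.5 for Col4a1, 2.32 for Igfbp7 and 4.2 for Lyve1. In batch 2 they were 2.22, 0.93 and 2.64, and in batch 3 they were 0.92, 0.78 and 1.85.

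Mouse 86 had high Lyve1 in ARC as well, where it was the highest library for 1 of the 5 measured perivascular macrophage genes, Lyve1 itself. In its ARC library Lyz2, the lysozyme gene of myeloid cells, was at 3.34 CPM against 6.84 to 37.0 CPM in the other 8 ARC libraries. Stab1, a scavenger receptor gene, was at 5.47 CPM against 2.28 to 10.1 CPM. In its PVN library Lyz2 was at 7.37 CPM, within the 0.543 to 20.8 CPM of the other 9. In its DMH library Lyve1 was at 0.377 CPM. In VMH its library was the highest for 2 of the 5 genes, Lyve1 at 2.76 CPM against 0 to 2.10 CPM in the other 10 and Stab1 at 15 CPM against at most 9.32 CPM. Of the measured endothelial genes 6 of 15 were highest in mouse 86 in PVN and 2 of 15 in ARC, against 20.9% and 21% of all genes.

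Whether fasting changed these genes in the nuclei that did not serve to pick them was tested in ARC, DMH and VMH. No gene passed in any of the 3 nuclei, 0 of 15 tests with limma, where 3 had an unadjusted p under 0.05. The fits called 0.176% of all genes in ARC, 0.0103% in DMH and 0.0208% in VMH. An unadjusted p under 0.05 was found for 782 of 9654 genes in ARC, 646 of 9751 in DMH and 670 of 9594 in VMH. Lyve1 did not pass the filter on low values in any of them. The 3 were Col4a2 in ARC at 0.53 (95% interval ± 0.47, adjusted p = 0.571), Flt1 in ARC at -0.53 (± 0.45, adjusted p = 0.559) and Flt1 in DMH at -0.68 (± 0.44, adjusted p = 0.679).

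With ARC, DMH and VMH in a single fit, Flt1 fell by 0.48 ± 0.12 log2 units in fasted mice (SE, adjusted p = 0.0570, limma), 1 of the 6 genes, where 1.15% of all genes were called. In ARC, Flt1 was at 28.0, 28.2, 29.9 and 36.7 CPM in fasted and at 32.5, 47.0, 47.7, 48.4 and 49.6 CPM in fed libraries. The groups overlapped through 1 fed library, at 32.5 CPM. In DMH it was at 31.7, 38.2, 56.6, 65.3 and 67.6 CPM in fasted libraries, and the 6 fed libraries ran from 56.7 through a median of 81.4 to 99.7 CPM. In VMH the 6 fasted libraries ran from 33.2 through 46.4 to 64.9 CPM, and the fed libraries were at 40.1, 44.6, 54.9, 69.2 and 71.7 CPM. The groups overlapped in all 3 nuclei, least in ARC.

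The call of Flt1 was close to the threshold. It was kept in 13 of 20 alternatives and lost in 7, with adjusted p from 0.0282 to 0.397 and a fall of 0.37 to 0.55 log2 units throughout. It was lost without batch as a covariate (adjusted p = 0.397), with log2 depth as a covariate (0.293), and on leaving out any of 5 of the 12 mice, 3 fasted and 2 fed (adjusted p of 0.102 to 0.278). Depth was 1.94 to 5.59 M reads in the fasted and 2.37 to 8.23 M in the fed libraries of these nuclei, with medians of 3.55 and 4.82 M, and its part in the result was tested by that covariate alone. Within batches, fasted libraries were lower in 8 of 9 combinations of nucleus and batch, from -1.26 to 0.21 log2 units. The combination above 0 was VMH in batch 1, with 2 fasted and 1 fed library.

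**Figure D3:**
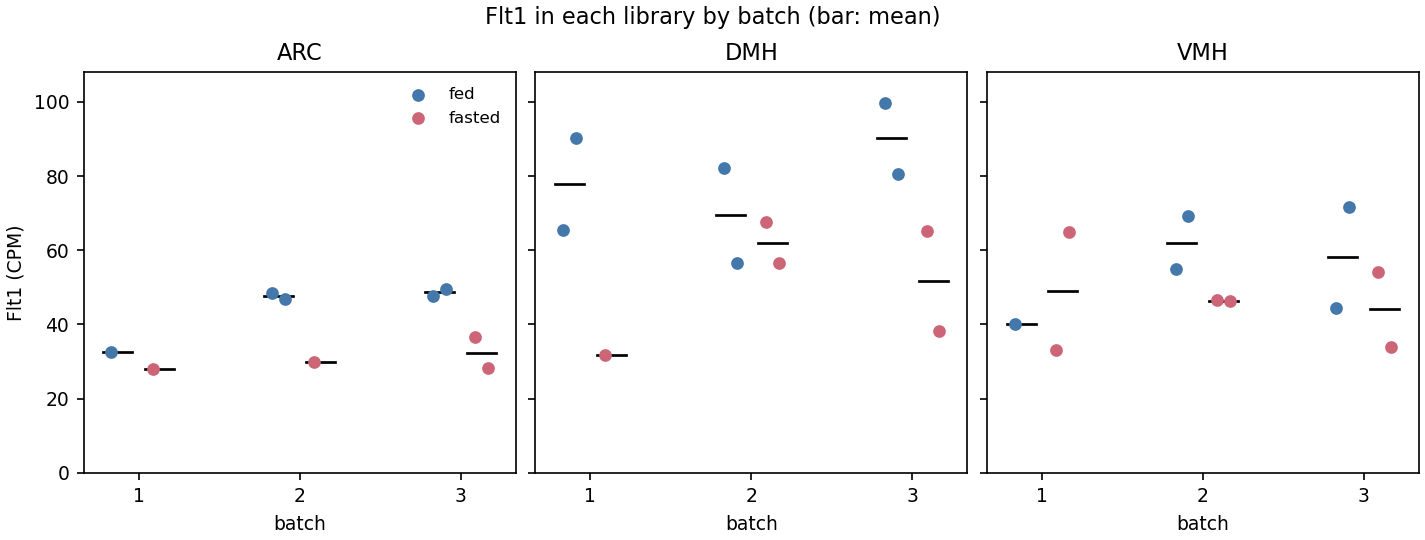
Flt1 in CPM in each fasted and fed library of ARC, DMH and VMH, separated by the 3 batches. Points are libraries and bars are means; fasted means are below fed means except in VMH of batch 1, where the difference is 0.21 log2 units.

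The other 5 genes did not pass in that fit. The differences were -0.02 (95% interval ± 0.35) for Col4a1, 0.25 (± 0.30) for Col4a2, 0.04 (± 0.39) for Igfbp7, 0.34 (± 0.56) for Cldn5 and 0.67 (± 0.90) for Lyve1. The difference between PVN and the other nuclei was not tested, because PVN had served to pick the genes. A test of whether the fasting change differed among ARC, DMH and VMH (F-test of limma) passed for 0 of the 6 genes and for 0% of all genes, with 502 genes at an unadjusted p under 0.05. The smallest unadjusted p among the 6 was 0.0797, for Lyve1.

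The rest of the endothelial list showed no call with fasting in these nuclei. Of the 13 other endothelial genes 0 passed and 1 had an unadjusted p under 0.05 in limma. Differences ran from -0.72 to 0.16, with 10 of 13 below 0. Over all genes of that fit 1.15% were called, 1106 of 10113 had an unadjusted p under 0.05, and 51.6% lay above 0. Kdr was at -0.38 and Itm2a, the lowest, at -0.72 (adjusted p = 0.189). Of the 6 measured genes of the VEGF list, Flt1 was the gene that passed, and 5 of 6 were below 0. The summed endothelial level was 106 to 142 CPM in fasted and 150 to 219 CPM in fed ARC, and 175 to 255 CPM and 196 to 389 CPM in DMH. In VMH it was 159 to 247 CPM and 185 to 269 CPM. These sums include Flt1, and the part of the number of endothelial cells was not tested. Among the lists of other cell types, Agt, an angiotensinogen gene of astrocytes, was the gene that passed, at 0.46 ± 0.12 (adjusted p = 0.0568), and it did not pass without mouse 86 (0.43, adjusted p = 0.153).

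**Figure D4:**
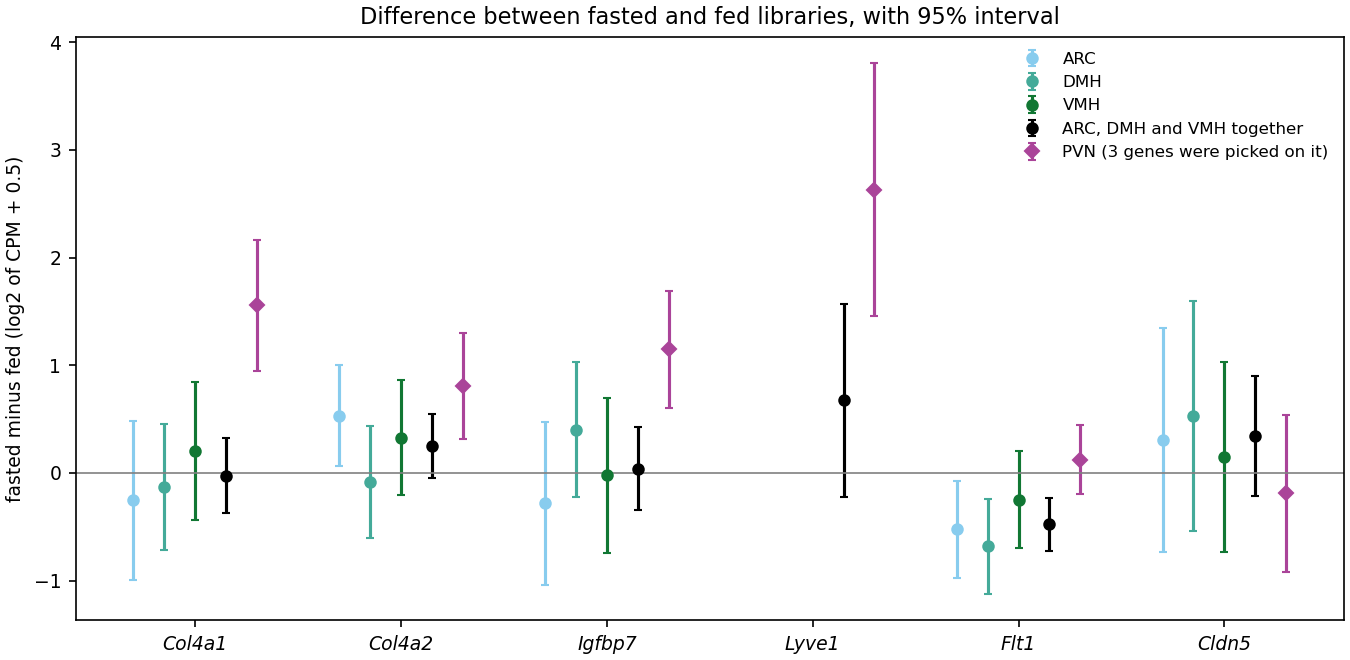
Difference between fasted and fed libraries for each gene, on the log2(CPM + 0.5) scale, in ARC, DMH and VMH, in these 3 together and in PVN, with 95% intervals. Flt1 is below 0 in the combined fit at -0.48. The PVN values (diamonds) are descriptive, with Lyve1 at 2.63, and their intervals are not read as a test. Lyve1 has no value in single nuclei other than PVN.

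Most pairs of the 6 genes had r near 0 across the 41 libraries once nucleus, nutritional state and batch were accounted for. Over the 41 libraries as measured, pairs of the genes had r from 0.12 (Col4a2 and Flt1) to 0.62 (Col4a2 and Lyve1). With the 8 group means and batch taken out, r lay between -0.14 and 0.42, and 13 of the 15 pairs lay between -0.14 and 0.10. The highest was Lyve1 with Cldn5 at 0.42, where Cldn5 ranked 82 of 7639 genes by r to Lyve1. That r was 0.51 without mouse 86 and 0.45 without PVN. The lowest r was -0.34 without PVN, for Col4a2 with Igfbp7, and -0.31 without mouse 86, for Col4a1 with Igfbp7. These are descriptions over libraries that share mice, batches and depth. As measured, Col4a1, Igfbp7 and Lyve1 also share the fasted PVN rise on which they were picked, so nothing is read from r among them.

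The collagen chains are assembled together into a common protomer, and their genes share a start, as printed above. Their r was 0.53 as measured and 0.07 with group means and batch out, with Col4a2 at rank 2874 of 7639 for Col4a1. Col4a2 was above Col4a1 in 36 of 41 libraries, with a median ratio of CPM of 1.85. The ratio ran from 0.863 to 8.13, and the highest was the ARC library of fasted mouse 86, where Col4a1 was at 9.43 CPM (31 reads) and Col4a2 at 76.6 CPM. In PVN the median ratio was 1.28 in fasted and 1.88 in fed libraries. Col4a1 was picked on its rise there, so nothing is read from that difference. Fasted and fed medians were 1.90 and 1.14 in ARC, 1.85 and 2.00 in DMH, and 2.14 and 2.19 in VMH.

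The genes most like each of the 6 were sought by r among 7639 genes with a mean of at least 5 CPM, with group means and batch out. Lyve1, at a mean of 2.84 CPM, lay below that limit but was ranked too, at 84 of 7639 for Cldn5. The 5 genes most like each of the 6 held no other gene of the 6. For Col4a1 they were Spty2d1 (r = 0.68), Prkrip1, Clcn4, Ttc7 and Stx18. For Col4a2 they were Prr12 (0.62), Herpud1, Ano6, Gm15063 and Ppp1r9b. For Igfbp7 they were Pole4 (0.61), Tgfa, Zfc3h1, Dach1 and Carm1. The genes most like Lyve1 were Tmem205 (0.64), Dcaf7, Sestd1, Trak1 and Tasp1. Those most like Flt1 were Yae1d1 (0.61), Pdik1l, Zfp599, Rfx3 and Vgll4. Those most like Cldn5 were Tbc1d32 (0.58), Pex14, Spg20, Rps3 and Rpsa. None of these 30 genes is on the endothelial or basement membrane list. Without mouse 86, 6 of the 30 stayed among the 5 most alike (Rps3, Rpsa and Tbc1d32 for Cldn5, Prr12 for Col4a2, Zfc3h1 for Igfbp7 and Tmem205 for Lyve1), and none did for Col4a1 or Flt1.

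**Figure D5:**
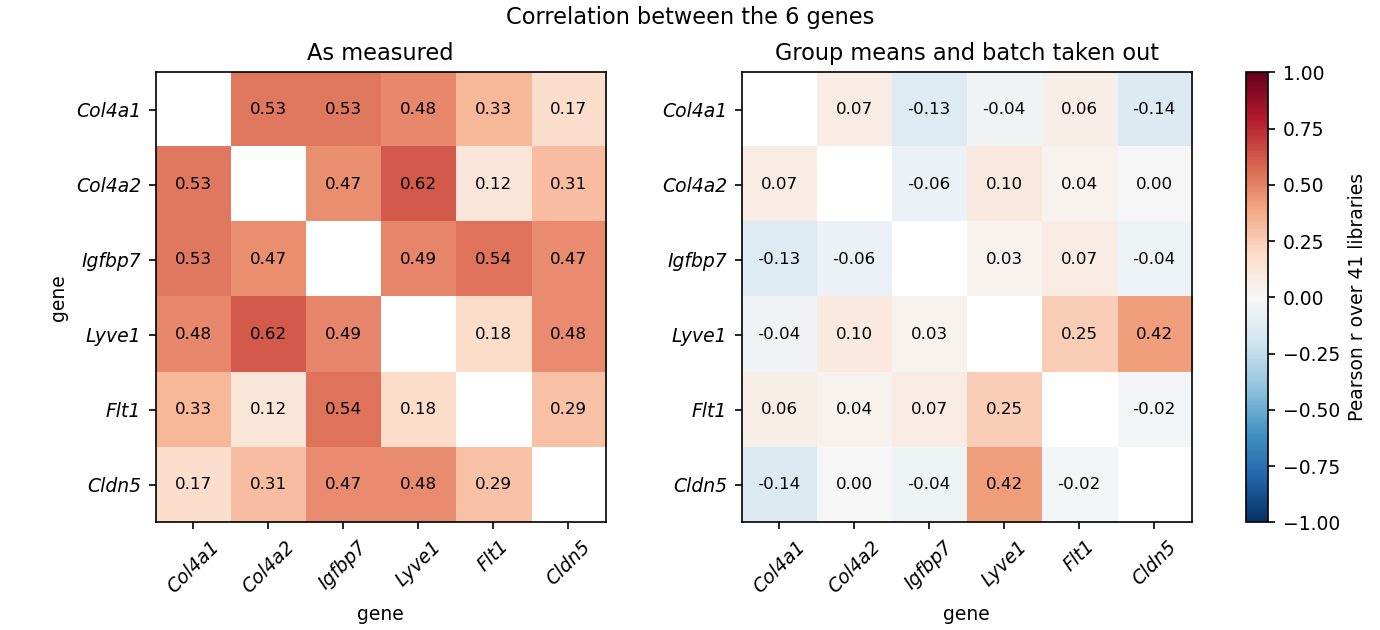
Pearson r over 41 libraries between each pair of the 6 genes, as measured and with the 8 group means and batch taken out. Most squares that are red as measured are near 0 after that step, with Lyve1 and Cldn5 at 0.42 the highest. The values as measured hold the fasted PVN rise on which Col4a1, Igfbp7 and Lyve1 were picked.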

How the data were processed

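Nuclei were laser-captured from frozen sections and their RNA amplified with an Ovation V2 kit, as the methods and labels state, and reads were mapped to GRCm38 with TopHat2 2.0.11. The authors left out outlier libraries and deposited CPM per Ensembl gene, which is relative to the total reads of a library, so a large change in other genes shifts every value. The submitters' processing notes also name Cufflinks 2.2.1, edgeR and limma without their roles, so which program assigned reads to genes, and its use of strand, are not given in the sources used here. The table held 10127 genes, of which 9891 matched a GENCODE M21 symbol. Of its columns, 41 were matched to a sample by name, 2 had no matching sample and were left aside, and 2 of 43 samples were not analysed here.

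Depth was read from the step between low values, of which 97.7% to 98.8% were whole multiples (within 0.1 read). In 101 genes a positive value under 0.01 CPM occurred, so whole reads were not claimed and no count test was run. Since RNA was amplified, reads do not stand for independent molecules.

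Fits used limma 3.58.1 in R 4.3.3 (lmFit, eBayes with trend) on log2(CPM + 0.5), which understates the change of low genes, with batch (3, by the number in the labels, which do not say what it marks) as a covariate. Genes needed 1 CPM in as many libraries as the smallest group. P values were 2-sided, adjusted by Benjamini-Hochberg over all genes, and called under 0.1, as in the study. Fasting was fitted per nucleus, and over ARC, DMH and VMH with mouse as a random effect (correlation 0.00679). Nuclei were compared over all 41 libraries. Pairing comes from the mouse number, since nuclei share an animal; deviations of same-mouse libraries had a median correlation of -0.05 over 57 pairs. Self-tests on simulated data ran before the fits. Labels name separate mice within a group.

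Named were the 6 genes, the 5 genes most like each by r, listed genes called with fasting, defining markers of a cell type, and the 2 most abundant of a list; Lama1, Hspg2, Abcc9, Anpep, Atp13a5, Kcnj8, Acta2, Itm2a, Lyz2, Stab1 and F13a1 were added after their values were seen. The 6 genes, the lists and the tests were chosen with earlier results of these data known. Alternatives were the pseudocount, filter, scaling, batch, depth, weights, replicate block, nutritional state and each library or mouse left out.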

Additional observations from a re-analysis of the deposited data

Results flagged for a closer look

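In 10 of 48 groups of libraries, a single library stood apart from the rest of its group by Dixon's test. Leaving out the PVN groups of the 3 genes picked there, it was 7 of 42. For independent, normally distributed values chance gives about 5% (about 1 in 20) of groups. CPM near 0 need not follow that, and the groups share libraries, so no excess over chance is read from the count. Fasted mouse 86 was the high library in 6 of the 10: Col4a1 in PVN (106 CPM), Col4a2 in ARC (76.6 CPM), Igfbp7 in DMH (27.9 CPM) and in PVN (139 CPM), and Lyve1 in ARC (39.5 CPM) and in PVN (38.6 CPM). The PVN groups among these 6 hold values used to pick the genes and are not part of the 7 of 42. The same fed mouse of batch 1 was apart in 3 of the 10, low for Flt1 in ARC (32.5 CPM) and high for Lyve1 in ARC (0.844 CPM) and VMH (1.45 CPM, with the other libraries of that group listed at 0). Cldn5 was low in 1 VMH library of a fasted mouse (3.09 CPM, 6 reads). The cause was not tested.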

How the results depend on the processing

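Of 1257 values under an alternative, 1144 were classed as the same. For differences with a p value this means the same direction and side of the threshold. Counts classed so could still change, as from 13 to 12 other endothelial genes higher in PVN in fasted libraries alone. Counts over all 6 genes include PVN values on which 3 were picked, and nothing is read from them: 6 genes past the threshold over the nuclei became 3 in fed libraries alone, and 18 pairs became 7. The 13 other endothelial genes higher in PVN became 5 there, an alternative chosen after seeing the data. In fed libraries PVN minus the mean of the others reversed to -0.0894 for Col4a1, PVN minus ARC to -0.364 and PVN minus DMH to -0.248, and PVN minus DMH of Col4a2 to -0.0396; fewer libraries enter these fits. The cause was not tested in the following cases. The count of 1 gene in the combined fasting fit became 0 without batch and 0 with depth, and ranged from 0 to 1 with a mouse left out. Changes near 0 reversed: Igfbp7 in VMH to 0.0334 without batch, 0.223 with depth and 0.0730 with library weights, Col4a1 in DMH to 0.0143 with depth, and Col4a2 in DMH to 0.114 with weights. With a library left out, they ranged from -0.149 to 0.202 for Igfbp7 in VMH, from -0.255 to 0.136 for Col4a2 in DMH, from -0.538 to 0.184 for Col4a1 in ARC and from -0.0414 to 0.507 for Cldn5 in ARC. With a mouse left out of the combined fit, they ranged from -0.0830 to 0.0673 for Col4a1 and from -0.0806 to 0.171 for Igfbp7. Between nuclei the replicate block was run for the 6 genes and for the count of the other endothelial genes, which stayed at 13. Of the calls for the 6 genes that the text tests, it ended those of Lyve1 between VMH and ARC (-0.854) and of Flt1 between VMH and DMH (-0.254), and no other. Leaving out 1 of the 12 mice ended these calls for 8 and 9 of the mice, and for 2 mice, 1 fasted and 1 fed, it ended the call of Col4a2 in the test over the 4 nuclei (adjusted p = 0.119 and 0.101). Agt was run without mouse 86 after seeing the data.

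At the median depth of 4.10 M reads, Lyve1 below about 1 CPM rests on a few reads.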
